A study of Mus musculus with 24 samples.

Results

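The genes described here encode the proteins of the cytosolic ribosome, together with a few paralogs that share their symbols, in subregions of the mouse suprachiasmatic nucleus (SCN), the pair of small nuclei above the optic chiasm that keeps circadian time. They were chosen from the array annotation by symbol alone: Rpl or Rps followed by a digit, Rpsa, Rplp0, Rplp1 or Rplp2, without Rps6k kinases, pseudogenes or mitochondrial ribosomal proteins. The rule found 50 genes among the 18193 genes with a probe set of their own on the array. These were 22 genes of the large subunit, 21 of the small subunit, 6 paralog-named genes (Rpl22l1, Rpl39l, Rpl3l, Rpl7l1, Rps27l and Rps4l) and Rps19bp1, whose product binds the small-subunit protein RPS19 and is not part of the ribosome. A further 31 ribosomal protein symbols lay only on probe sets that also name other genes and are not described one by one, and Rplp1 and Rps27a were not analysed here.

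The arrays compared adult wild-type C57BL/6 mice that received a light pulse of 30 min, of the kind that advances the clock, with mice that received a sham treatment. All mice had been obtained at 8 weeks of age, housed singly and kept in constant dim red light for at least 7 days, and all were killed 3.5 h after the pulse or sham. Tissue of the ventral (core), the central and the dorsal SCN was cut by laser from stained coronal cryosections of 25 µm, and their RNA, carried with 20 ng of bacterial ribosomal RNA, was amplified and hybridised. Each of the 6 groups had 4 arrays, 2 in each of the batches A and B in which amplification and labelling were done. The labels do not say which arrays come from the same animal or how many animals a sample pools, so p-values measure the spread between these arrays only. No transgene or mutation was involved in any group.

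A ribosome is built from ribosomal RNA and one copy of most of these proteins in each subunit, so the genes are known for being expressed together and at high levels in nearly every cell. Their mRNAs begin with a run of pyrimidines through which TOR signalling sets how much of each mRNA is translated, so protein output can change while mRNA levels stay as they are. Light during the night is known to activate this pathway in SCN cells, and phosphorylation of RPS6 is commonly used to read it. The arrays measure mRNA levels and say nothing of translation.

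Promoters of the 4 genes that passed a test between subregions (Rpl6, Rpl22, Rpl38 and Rpsa, described below) are shown. The promoters differ in which of the features searched they hold. They are taken from the RefSeq annotation of build GRCm38.p6, on the plus strand, from 200 bases before the annotated transcription start to 10 bases from it, at chr5:121204301-121204510 for Rpl6, chr4:152324236-152324445 for Rpl22 (the more upstream of its listed starts), chr11:114668380-114668589 for Rpl38 and chr9:120127566-120127775 for Rpsa. Capitals mark the ETS-family core CCGGAAG on either strand, the YY1 core AAGATGGC on either strand, and a run of at least 6 pyrimidines within 5 bases of the start.
Rpl6: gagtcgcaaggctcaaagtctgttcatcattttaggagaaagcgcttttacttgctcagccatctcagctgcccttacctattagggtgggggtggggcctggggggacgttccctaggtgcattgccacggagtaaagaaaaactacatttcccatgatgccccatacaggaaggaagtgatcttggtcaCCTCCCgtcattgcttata
Rpl22: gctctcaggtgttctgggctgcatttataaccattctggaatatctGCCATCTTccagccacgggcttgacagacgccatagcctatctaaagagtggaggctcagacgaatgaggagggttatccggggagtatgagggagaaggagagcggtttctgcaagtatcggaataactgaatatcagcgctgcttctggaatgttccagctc
Rpl38: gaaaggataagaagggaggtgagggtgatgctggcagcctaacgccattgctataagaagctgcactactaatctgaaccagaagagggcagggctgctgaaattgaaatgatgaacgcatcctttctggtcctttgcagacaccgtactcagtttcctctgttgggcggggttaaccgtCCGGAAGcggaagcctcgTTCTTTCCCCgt
Rpsa: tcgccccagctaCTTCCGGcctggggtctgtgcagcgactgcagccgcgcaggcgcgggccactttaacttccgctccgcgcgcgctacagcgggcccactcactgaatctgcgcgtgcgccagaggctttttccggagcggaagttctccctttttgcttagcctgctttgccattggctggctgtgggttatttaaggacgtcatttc
In Rpl38 the ETS core began 20 bases before the start and a run of 10 pyrimidines spanned the start. In Rpl6 the ETS core lay 13 bases past the start, outside the stretch shown, and a run of 6 pyrimidines began 9 bases before the start. In Rpsa the ETS core, read on the other strand as CTTCCGG, began at position -188 from the start, and in Rpl22 the YY1 core, read as GCCATCTT, began at position -154.

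A promoter of 300 bases, from 250 before to 50 after the start, was at hand for 44 of the 50 genes. Where a gene had several listed starts, the most upstream was used, which need not be its main start. A feature missing there may be present at another start. CCGGAAG, on either strand, was in 21 of these 44 promoters (47.7%), against 9.14% of the promoters of all 27025 genes in the same table. The palindrome CTCGCGAG was in 5 of 44 (11.4%), those of Rpl12, Rpl27a, Rps19, Rps28 and Rps6, against 0.966% of all. A pyrimidine run of at least 6 at the start was found in 22 of 44 (50%), against 20.9% of all. AAGATGGC, on either strand, was in 4 of 44 (9.09%, against 2.87% of all), and TATAAA, on either strand, in 6 of 44 (13.6%, against 14.2%). The remaining 2 motifs searched, CCACGTG on either strand and TGACGTCA, were each in 2 of 44 (4.55%), against 3.93% and 1.85% of all. A stretch of bases could count for more than 1 motif, and a match describes the letters only.

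Before the results, 2 features of the arrays bear on them. The deposited log2 values of batch B lay above those of batch A, by a median of 1.03 over the ribosomal protein genes and 1.73 over all genes tested, so levels are given by batch and every test carried the batch as a term. The library labelled dorsal light 4 (batch B) stood apart. Its 3′ minus 5′ difference over the Gapdh control probe sets was 5.41 on the log2 scale, against 0.887 to 1.07 on the other 11 arrays of batch B and 2.02 to 3.28 in batch A. On that array 22 of the 47 genes tested lay above the range of the other 11 arrays of batch B and 15 lay below it. Where it moves a result on a named gene by much, the value without it is given beside it. SCN and neuronal markers were present: Vip, Avp, Grp, Six6, Lhx1 and Rgs16, genes that mark SCN neurons, and Snap25, Syt1 and Rbfox3, which mark neurons, all read above 4 on all 24 arrays, while Foxj1, Rax, Hba-a1 and Alas2, which mark ependyma, tanycytes and blood, never did. The SCN marker Prok2 did so on 19 arrays, and of the other ependymal markers Ccdc153 did so on 16 and Tmem212 and Dnah11 on 1 each.

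**Figure D1:**
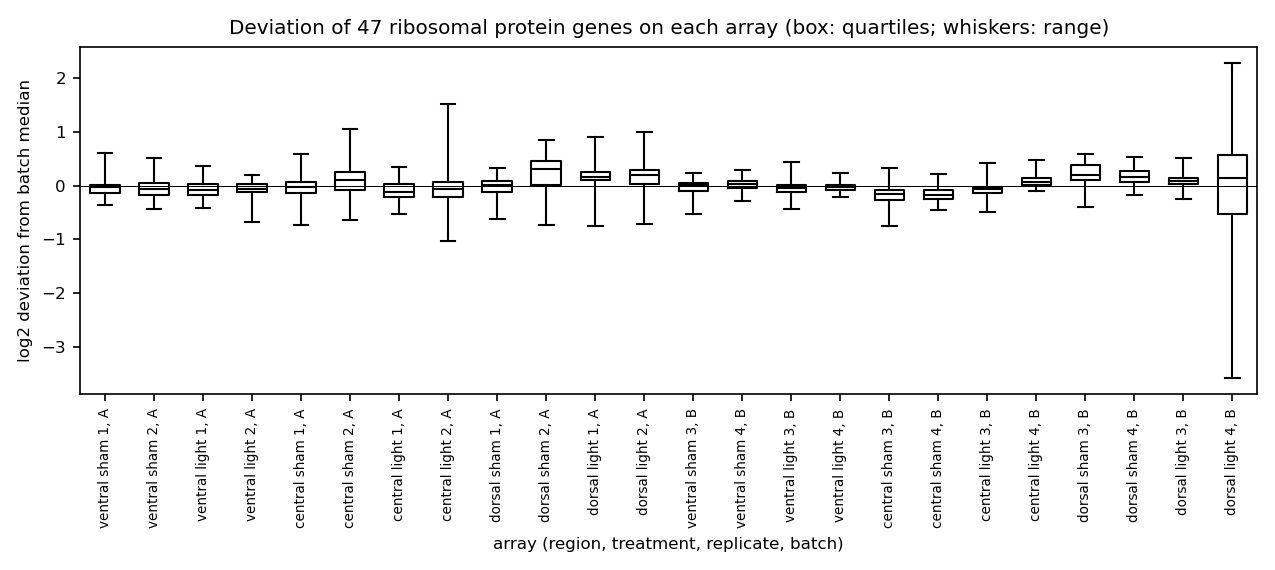
Log2 deviation of each of the 47 ribosomal protein genes from its median over the other arrays of the batch (vertical axis), for each of the 24 arrays (horizontal axis). Boxes are quartiles with the median as a line, and whiskers span the range. The SD of the deviations was 1.09 on dorsal light 4 and at most 0.383 on the other 23 arrays.

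A gene was tested where its log2 value was above 4 on at least 4 arrays, which 47 of the 50 genes passed. Rpl37, of the large subunit, was above 4 on 1 array only (range 2.98 to 5.01), and Rps16, of the small subunit (2.51 to 3.28), and Rpl3l, known as a striated muscle form of RPL3 (2.53 to 3.62), were above 4 on none. A low value of a probe set is not a low level of its gene, since probe sets differ in how well they hybridise. Most other members read high: 34 of 47 (72.3%) lay above 8 on all 24 arrays, as did 12% of all 13494 genes tested.

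Light. None of the 47 ribosomal protein genes passed the test for the light pulse in any subregion, in limma fits over all 13494 genes with Benjamini-Hochberg adjustment and a threshold of 0.05. The share of all genes called was 0.719% in the ventral SCN, 0.385% in the central SCN, 0.178% in the dorsal SCN and 0.408% for the effect averaged over the subregions. With shares this low, a list of 47 genes holds less than 1 call at the background rate, so the count of 0 does not set these genes apart. The median light effect over the 47 genes was -0.01 in the ventral, 0.01 in the central and 0.01 in the dorsal SCN and 0.01 on average, against -0.03, -0.08, -0.03 and -0.04 over all genes tested. After each array was centred on its own median these became -0.03, -0.03, -0.01 and -0.02, against -0.05, -0.12, -0.05 and -0.07, so the signs of the central, dorsal and averaged medians depend on the scaling. The median standard error of a single gene's light effect within a subregion was 0.179. Changes of this size, and somewhat larger ones, would not have passed the test. At an unadjusted p under 0.05, 0 of the 47 genes were found in the ventral SCN (6.56% of all genes), 1 in the central SCN (8.06%), 0 in the dorsal SCN (10.1%) and 1 on average (9.52%).

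**Figure D2:**
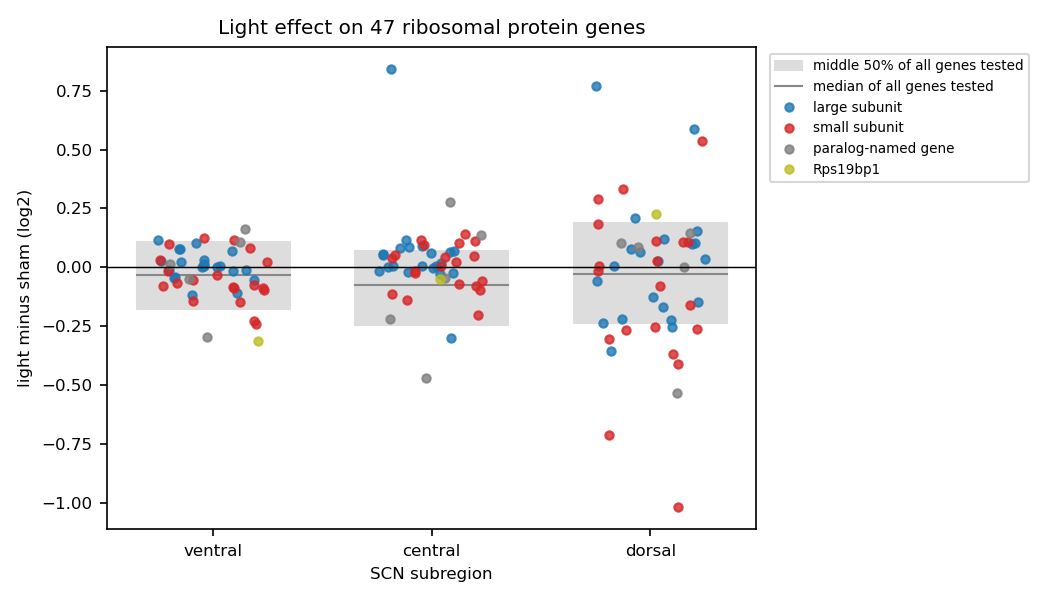
Light minus sham (log2, vertical axis) for each of the 47 ribosomal protein genes in the ventral, central and dorsal SCN, coloured by subunit; the grey band is the middle 50% of all 13494 genes tested and the grey line their median. The genes centre on 0 in each subregion, and in the dorsal SCN they range from -1.02 (Rps14) to 0.77 (Rpl14). Without dorsal light 4 the dorsal range is -0.17 (Rps26) to 0.28 (Rpl12), narrower than the central range of -0.47 (Rps4l) to 0.84 (Rpl12).

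The gene found in the central SCN and on average was Rpl12, whose product sits at the base of the ribosomal stalk. In batch A of the central SCN it read 3.11 and 4.11 on the sham arrays and 4.03 and 5.35 on the light arrays. In batch B it read 5.98 and 6.23 on the sham arrays and 6.47 and 6.96 on the light arrays. The light arrays were higher in batch B without overlap, while in batch A the ranges overlapped. The difference was 0.84 ± 0.348 (log2, SE, n = 4 against 4), a 1.79-fold ratio, with an adjusted p of 0.508 in limma. Rpl12 in the dorsal SCN differed by 0.59 (0.28 ± 0.337 without dorsal light 4, which read 7.93) and in the ventral SCN by 0.12, none past the threshold, and its values in batch A lay near the filter.

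In the dorsal SCN the smallest p-values belonged to Rps6, the target of S6 kinases (0.54 ± 0.262, adjusted p = 0.496 in limma), Rps14 (-1.02 ± 0.508, adjusted p = 0.496) and Rps18 (-0.37 ± 0.187, adjusted p = 0.498), both small-subunit proteins, and Rpl14 (0.77 ± 0.401, adjusted p = 0.50). Rps6 in batch B read 8.93 and 9.08 on the dorsal sham arrays and 8.93 and 10.61 on the light arrays. Rps14 in the same batch read 11.69 and 11.75 on the dorsal sham arrays and 11.59 and 7.86 on the light arrays. In both genes a single array, dorsal light 4, set the light group apart. Without it the light effects were 0.16 ± 0.187 for Rps6, -0.06 ± 0.141 for Rps14, -0.15 ± 0.156 for Rps18 and 0.24 ± 0.323 for Rpl14.

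In the ventral SCN, which receives most of the retinal input, the smallest p-values were those of Rps19bp1 (-0.31), Rps25 (-0.23), Rpl13a (-0.12) and the paralog-named Rpl7l1 (0.16), each with an adjusted p above 0.99 in limma. Light arrays lay above all sham arrays within both batches for Rpl27 in the ventral SCN (1 of 47, against 5.96% of all genes), for Rps2 and Rps7 in the central SCN (2 of 47, against 2.99%) and for Rpl27a in the dorsal SCN (1 of 47, against 3.31%). Light arrays lay below all sham arrays within both batches for Rpl13a and Rps14 in the ventral SCN (2 of 47, against 7.91%), and for no member in the central (6.36%) or dorsal SCN (2.63%). These shares are near those of all genes. No difference in the light effect between subregions passed limma's moderated F test for any of the 47 genes (0 called, against 0.00741% of all genes; 0 at an unadjusted p under 0.05, against 2.05%).

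In the central SCN the light effect ran in opposite directions in the 2 batches. In batch A 14 of the 47 genes were above 0, with a median of -0.11, and in batch B 46 of 47 were above 0, with a median of 0.14. Over all genes 28.1% were above 0 in batch A and 57.3% in batch B, so the tilt was shared by the rest of the array in direction. The difference in light effect between the batches, tested gene by gene, was called for 0 of the 47 genes (smallest adjusted p = 0.523 in limma), and for 0 genes on the array. At an unadjusted p under 0.05 it was found for 4 of the 47 genes. The share of all genes at that threshold was not computed, so the 4 cannot be set against the array. The median over the 47 genes was 10.31 and 10.40 on the central sham arrays of batch A and 10.28 and 10.36 on its light arrays. In batch B it was 11.31 and 11.32 on the sham arrays and 11.30 and 11.51 on the light arrays.

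**Figure D3:**
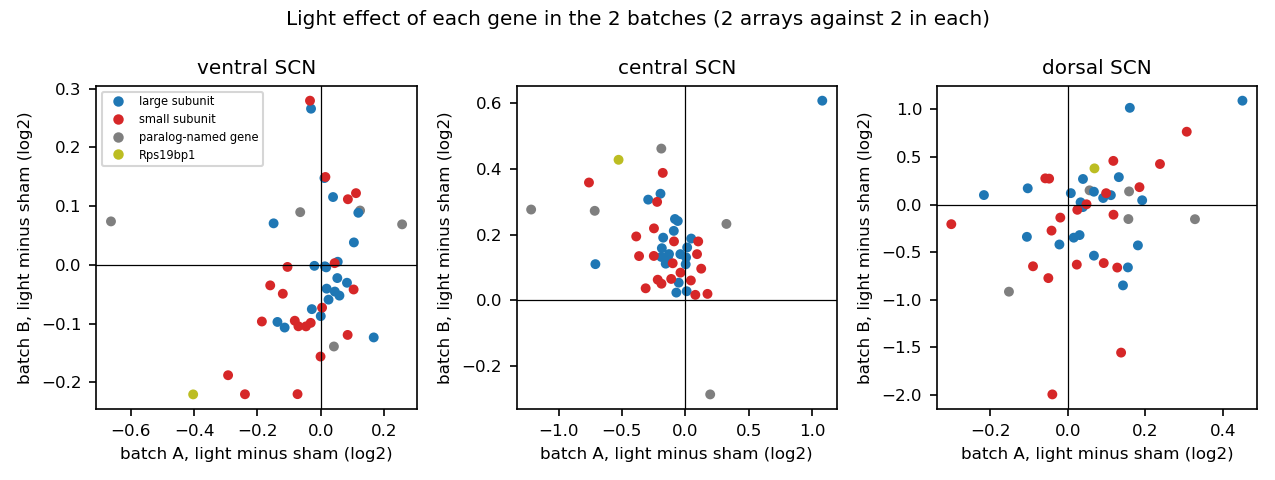
Light minus sham (log2) of each of the 47 ribosomal protein genes in batch A (horizontal axis) and batch B (vertical axis), one panel per subregion, 2 arrays against 2 in each batch, coloured by subunit. In the central SCN 46 of 47 points lie above 0 on the batch B axis and 14 of 47 above 0 on the batch A axis.

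Subregions. Ribosomal protein mRNAs were on the whole lower in the ventral and central SCN than in the dorsal SCN, by small amounts. Comparing ventral with dorsal SCN over 8 arrays each, 42 of the 47 genes (89.4%) had a lower mean in the ventral SCN, against 48.5% of all genes tested, and the median difference was -0.13 against 0.01. Comparing central with dorsal SCN, 41 of 47 (87.2%) had a lower mean in the central SCN, against 58.7% of all genes, and the median difference was -0.15 against -0.05. Few single genes passed the test. Rpl6 was lower in the ventral than in the dorsal SCN (1 of 47 called, lower, against 4.61% of all genes called and 1.98% called lower). Rpl6, Rpl22, Rpl38 and Rpsa were lower in the central than in the dorsal SCN (4 of 47 called, all lower, against 7.11% of all genes called and 5.14% called lower). Those 2 counts are near the background of the array. At an unadjusted p under 0.05, 15 of the 47 genes were lower in the ventral SCN (6.83% of all genes) and 15 in the central SCN (14.1%). At the same threshold 0 were higher in the ventral (8.18% of all genes) or the central SCN (5.19%).

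The tilt was also seen against genes of like signal. Among genes above 8 on all arrays, 32 of 34 ribosomal protein genes were lower in the ventral than in the dorsal SCN, against 39.9% of 1614 genes, and 32 of 34 were lower in the central SCN, against 43.9%. After every array was centred on its own median, 42 of 47 genes were still lower in the ventral and 41 of 47 in the central SCN. Centring kept the call of Rpl6 in the ventral SCN (4.48% of all genes called) and 3 of the 4 calls in the central SCN (6.41%), with Rpl38 at an adjusted p of 0.103 in limma. Without dorsal light 4, 44 of 47 genes were lower in each comparison, with medians of -0.19 and -0.20, and 3 genes (Rpl6, Rpl8 and Rps14) passed the test in the ventral and 7 (Rpl22, Rpl38, Rpl6, Rpl8, Rplp0, Rps14 and Rpsa) in the central SCN, with 5.39% and 8.74% of all genes called. Without dorsal light 3 the counts were also 3 and 7 (5.31% and 8.09% of all genes). Without dorsal sham 2 they were 0 and 2 (3.97% and 6.27%), and without dorsal sham 3 they were 1 and 1 (3.62% and 5.29%). Without central light 3, central sham 3 or central sham 4 they were 1 and 2 (4.47% to 4.56% and 5.5% to 5.88%). Within batch A the median differences were -0.18 and -0.16, with 40 and 41 of 47 genes below 0, and within batch B -0.12 and -0.21, with 33 and 35 below 0.

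**Figure D4:**
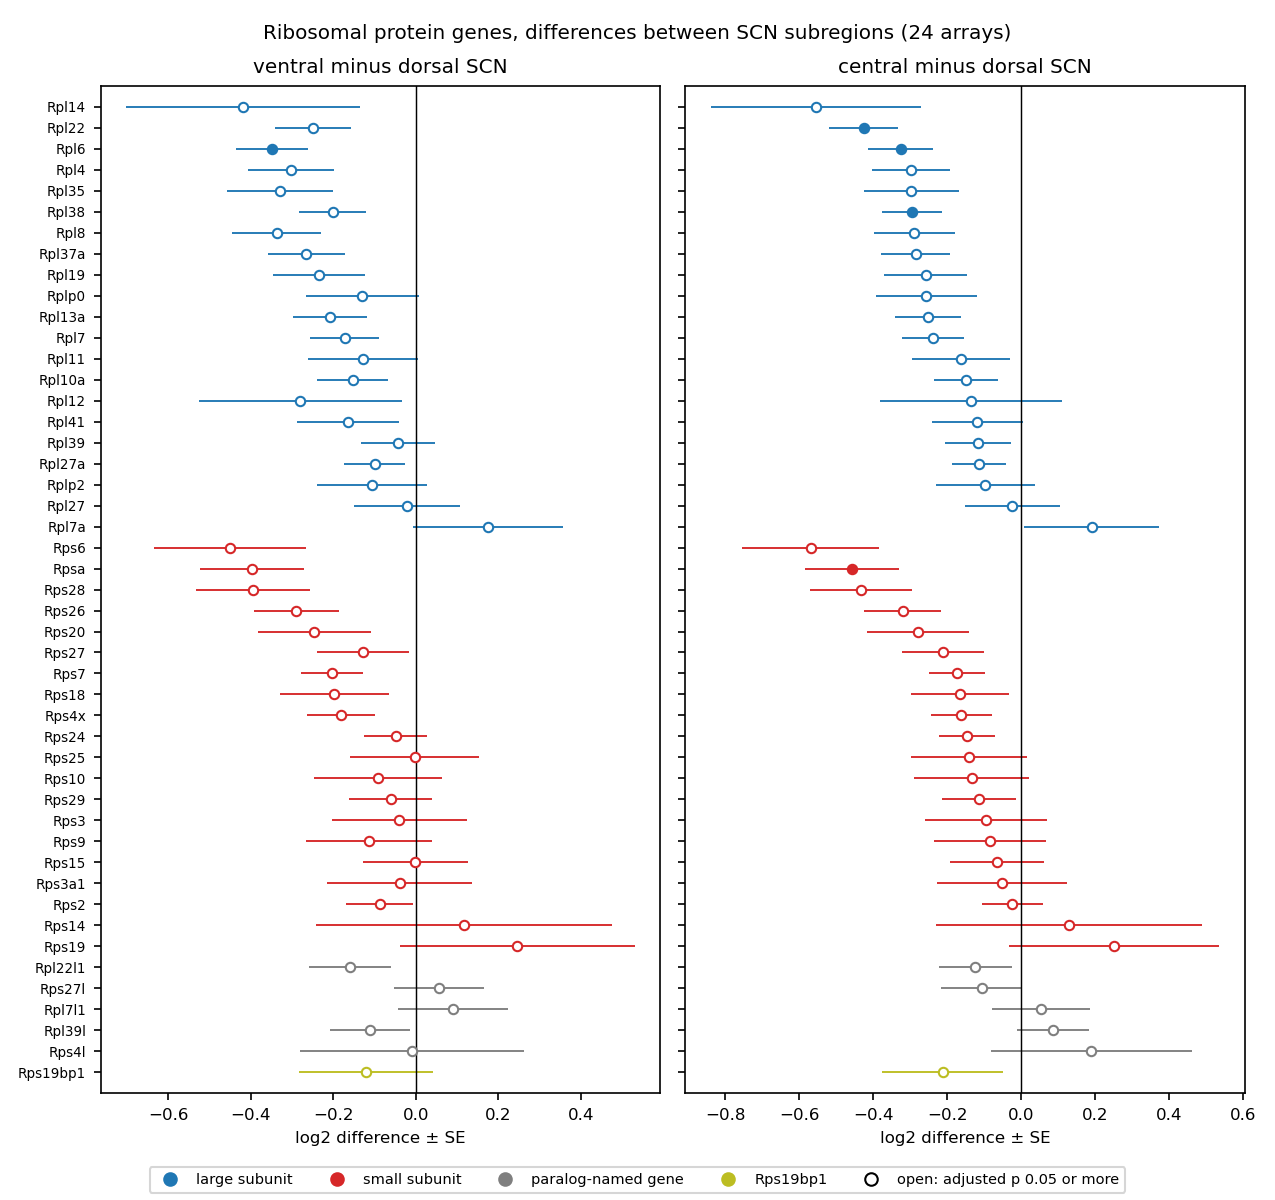
Log2 difference with its SE (horizontal axis) of each of the 47 ribosomal protein genes between ventral and dorsal SCN (left) and between central and dorsal SCN (right), over 8 arrays per subregion with batch as a term, coloured by subunit; filled points have an adjusted p under 0.05. Of 47 points, 42 lie below 0 on the left and 41 on the right.

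The median over the 47 genes on each array shows how far the subregions overlapped. In batch A it was 10.27 to 10.38 on the ventral, 10.28 to 10.40 on the central and 10.40 to 10.76 on the dorsal arrays. In batch B it was 11.35 to 11.52 on the ventral, 11.30 to 11.51 on the central and 11.35 to 11.70 on the dorsal arrays, with dorsal light 4 the lowest of the dorsal arrays. In batch A 3 of the 4 dorsal arrays lay above every ventral and central array, and dorsal sham 1 lay just under the highest central array. In batch B 3 of the 4 dorsal arrays lay above every ventral and central array, and dorsal light 4 lay among them. The dorsal mean was the highest of the 3 subregions for 32 of 47 genes in the sham arrays of batch A, 38 in its light arrays, 43 in the sham arrays of batch B and 27 in its light arrays, which hold dorsal light 4, against 34.1%, 43.2%, 38.8% and 42.7% of all genes. In all 4 of these strata it was the highest for 15 of 47 genes (31.9%), against 7.05% of all genes.

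**Figure D5:**
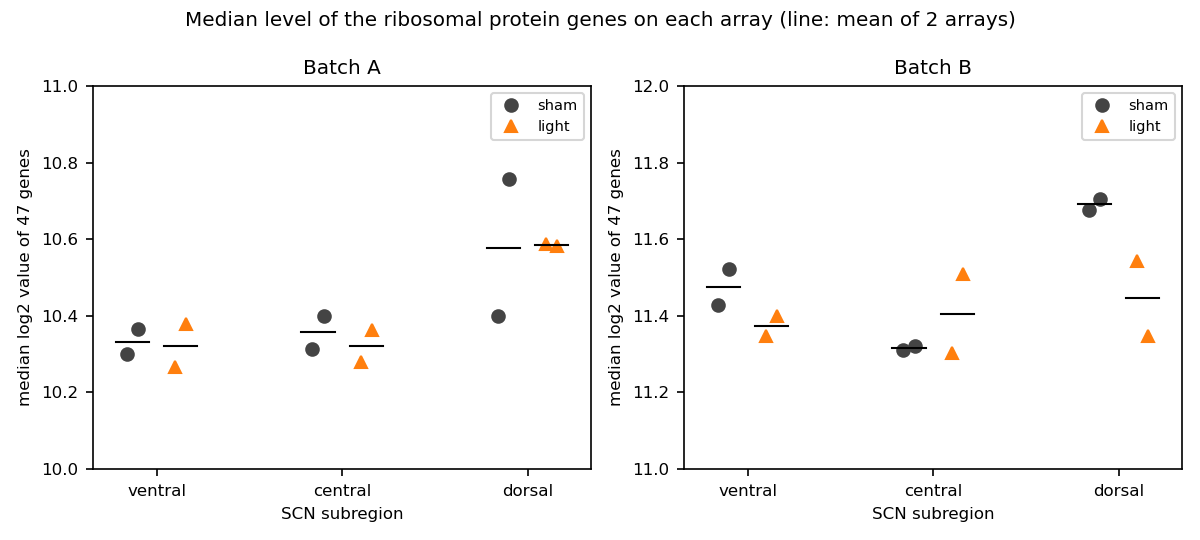
Median log2 value of the 47 ribosomal protein genes (vertical axis) on each of the 24 arrays, by subregion (horizontal axis), treatment (circles sham, triangles light) and batch (panels, each with its own range); lines are means of 2 arrays. In each batch 3 of the 4 dorsal arrays lie above all ventral and central arrays; the others are dorsal sham 1 (10.40) and dorsal light 4 (11.35).

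Cell-type markers moved between the subregions as well. The mean over 5 neuronal markers was 7.96 to 8.36 on the ventral, 7.82 to 8.52 on the central and 8.47 to 8.79 on the dorsal arrays of batch A, and 9.60 to 9.79, 9.88 to 10.05 and 10.01 to 10.44 in batch B. The mean over 5 astrocyte markers was 9.19 to 9.46 on ventral, 8.44 to 8.77 on central and 8.33 to 8.98 on dorsal arrays of batch A, and 10.42 to 10.80, 10.06 to 10.30 and 9.96 to 10.37 in batch B. The mean over 4 oligodendrocyte markers was highest in the ventral and lowest in the central SCN, at 8.86 to 9.44 on ventral, 5.36 to 6.60 on central and 7.23 to 7.92 on dorsal arrays of batch A, and 10.05 to 10.47, 7.26 to 7.91 and 9.02 to 9.36 in batch B. The mean over 5 markers of ependyma and tanycytes was 2.86 to 3.52 on ventral, 2.94 to 3.28 on central and 3.51 to 3.72 on dorsal arrays of batch A, and 3.41 to 3.89, 3.23 to 3.49 and 3.73 to 4.16 in batch B; of these, Ccdc153 was tested and was lower than in the dorsal SCN by differences of -1.59 (ventral) and -1.97 (central). The mean over 5 microglial markers was 4.10 to 4.57 on ventral, 3.82 to 4.18 on central and 4.27 to 4.58 on dorsal arrays of batch A, and 5.92 to 6.22, 5.495 to 5.79 and 6.04 to 6.56 in batch B. The mean over 5 endothelial and mural markers was 4.98 to 5.22, 4.25 to 4.77 and 4.73 to 5.39 in batch A, and 6.80 to 7.32, 6.22 to 6.49 and 6.06 to 7.19 in batch B, in the same order. The mean over 7 SCN markers was 7.98 to 8.60, 8.10 to 8.95 and 7.08 to 8.26 in batch A, and 9.86 to 10.21, 10.19 to 10.57 and 9.16 to 10.14 in batch B.

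Of the 5 neuronal markers, 1 was called lower than in the dorsal SCN in each comparison; the 4 oligodendrocyte markers were all called higher in the ventral and lower in the central SCN, and 3 of the 5 astrocyte markers were called higher in the ventral SCN. Between central and dorsal SCN 1 of 5 microglial and 2 of 5 endothelial and mural markers were called lower. Of the 7 SCN markers, 2 were called higher and 1 lower in the ventral SCN, and 3 higher and 1 lower in the central SCN. The part of these cell types in the difference of ribosomal protein mRNAs was not tested. In tissue of this kind fewer cells of a type and less RNA per cell cannot be told apart.

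Rpl6, a large-subunit protein, was the one gene called in both comparisons. In batch A it read 10.51 and 10.47 on ventral sham, 10.55 and 10.64 on ventral light, 10.57 and 10.78 on central sham and 10.51 and 10.70 on central light arrays. The dorsal arrays of batch A read 10.72 and 11.07 (sham) and 10.75 and 10.83 (light). All ventral values lay below all dorsal values, and 1 central array, sham 2, reached into the dorsal range. In batch B it read 11.62 and 11.57 on ventral sham, 11.69 and 11.57 on ventral light, 11.59 and 11.51 on central sham and 11.56 and 11.58 on central light arrays, against 11.98, 11.87, 12.01 and 12.19 on dorsal arrays. In batch B neither the ventral nor the central values overlapped the dorsal values. The difference was -0.35 ± 0.0875 between ventral and dorsal SCN (1.27-fold, adjusted p = 0.0194 in limma) and -0.33 ± 0.0875 between central and dorsal SCN (1.25-fold, adjusted p = 0.0225). Within batches A and B it was -0.30 and -0.40 between ventral and dorsal, and -0.20 and -0.45 between central and dorsal SCN.

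Rpl22 encodes a large-subunit protein that cells can partly replace by its paralog. On the central arrays it read 9.20 and 9.46 (sham) and 9.39 and 9.37 (light) in batch A, and 10.35 and 10.40 (sham) and 10.49 and 10.63 (light) in batch B. On the dorsal arrays it read 9.42 and 9.79 (sham) and 9.57 and 9.82 (light) in batch A, and 11.01 and 10.96 (sham) and 10.92 and 11.19 (light) in batch B. The groups were apart in batch B, and in batch A they overlapped through dorsal sham 1. The difference between central and dorsal SCN was -0.43 ± 0.0923 (1.34-fold, adjusted p = 0.00458 in limma; -0.30 within batch A and -0.56 within batch B), and between ventral and dorsal SCN -0.25 (adjusted p = 0.167). Its other 2 probe sets read -0.26 and -0.02 between central and dorsal SCN, so the size and the call depend on the probe set. Rpl22 was not called with the mean of all probe sets of a gene, nor with probe sets of suffix x or s left out.

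Rpl38 encodes a large-subunit protein known in mice for the tail-short mutation and its part in the translation of Hox mRNAs. It read 11.53 to 11.70 on the central and 11.75 to 11.99 on the dorsal arrays of batch A, and 12.22 to 12.40 and 12.48 to 12.85 in batch B. Central and dorsal arrays did not overlap in either batch. The difference was -0.30 ± 0.0811 (1.23-fold, adjusted p = 0.0258 in limma; -0.25 within batch A and -0.34 within batch B). Its difference between ventral and dorsal SCN was -0.20 (adjusted p = 0.217).

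Rpsa encodes a small-subunit protein also known as the laminin receptor precursor. It read 10.77 to 11.23 on the central and 11.19 to 11.61 on the dorsal arrays of batch A, and 11.03 to 11.36 and 11.46 to 12.39 in batch B, where the highest value was that of dorsal light 4. The groups overlapped in batch A and were apart in batch B. The difference between central and dorsal SCN was -0.46 ± 0.127 (1.37-fold, adjusted p = 0.0276 in limma; -0.37 within batch A and -0.55 within batch B), and -0.36 ± 0.104 without dorsal light 4 (adjusted p = 0.0315). Between ventral and dorsal SCN it was -0.40 (adjusted p = 0.0838). Its other probe set read -0.32 between central and dorsal SCN.

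Complete separation of arrays within both batches, which does not rest on the model, was seen for few genes. Ventral arrays lay below all dorsal arrays in both batches for Rpl6, Rps26 and Rps7 (3 of 47, against 0.897% of all genes), and central arrays for Rpl38 and Rps7 (2 of 47, against 1.58%). Rps7, a small-subunit protein, read 10.67 to 10.80 on ventral, 10.67 to 10.88 on central and 10.94 to 11.07 on dorsal arrays of batch A, and 11.65 to 11.71, 11.58 to 11.73 and 11.73 to 11.89 in batch B, where the highest central and the lowest dorsal array all but met. Its differences of -0.20 and -0.17 from the dorsal SCN were even across arrays and did not pass the test (adjusted p = 0.160 and 0.191 in limma).

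By subunit, 20 of 21 large-subunit genes and 18 of 20 small-subunit genes were lower in the ventral than in the dorsal SCN, with medians of -0.20 and -0.10. The same counts held between central and dorsal SCN, with medians of -0.25 and -0.14. The large-subunit gene above 0 in both comparisons was Rpl7a (0.18 and 0.19), and the small-subunit genes were Rps14 (0.12 and 0.13) and Rps19 (0.25 and 0.25). All 3 read far lower on dorsal light 4 than on the other 11 arrays of batch B: 11.09 against 12.6 to 12.9 for Rpl7a, 7.86 against 11.2 to 11.7 for Rps14 and 8.38 against a median of 11.19 for Rps19. Without that array all 3 were below 0: Rps14 was lower in the ventral SCN by a difference of -0.36 ± 0.0961 (adjusted p = 0.0261 in limma) and in the central SCN by -0.35 (adjusted p = 0.0230), while Rpl7a (-0.04 and -0.03) and Rps19 (-0.12 and -0.11) did not pass the test. The other probe set of Rps14 was below 0 with all 24 arrays in the fit, at -0.18 and -0.19.

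Of the stalk proteins that recruit elongation factors, Rplp0 differed by -0.13 ± 0.137 between ventral and dorsal and by -0.26 ± 0.137 between central and dorsal SCN, and Rplp2 by -0.11 and -0.10, none past the threshold. Rplp2 read 11.49 on dorsal light 4, and without that array its differences were -0.22 and -0.22, not past the threshold (adjusted p = 0.303 and 0.236 in limma). Rplp0 read 8.81 on dorsal light 4 and 9.70 to 10.02 on the other dorsal arrays of batch B, and without dorsal light 4 it was lower in the central SCN by a difference of -0.39 ± 0.0958 (adjusted p = 0.0106 in limma). Rps6 had the largest difference between central and dorsal SCN of all 47 genes, -0.57 ± 0.185 (1.48-fold, adjusted p = 0.0665), and dorsal light 4, at 10.61, was its highest array; without it the difference was -0.38 (adjusted p = 0.0673). Rps28, a small-subunit protein, differed by -0.43 ± 0.139 (adjusted p = 0.0620), and its other 2 probe sets gave -0.40 and -0.41; without dorsal light 4 the difference was -0.31 (adjusted p = 0.0809).

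The paralog-named genes did not share the tilt evenly. Rpl22l1 differed by -0.16 between ventral and dorsal and by -0.12 between central and dorsal SCN, in the direction of its parent Rpl22. Rpl39l (-0.11 and 0.08), Rpl7l1 (0.09 and 0.05), Rps27l (0.06 and -0.11) and Rps4l (-0.01 and 0.19) lay on both sides of 0, while their parents Rpl39 (-0.04 and -0.12), Rpl7 (-0.17 and -0.24), Rps27 (-0.13 and -0.21) and Rps4x (-0.18 and -0.16) were below 0 in both comparisons. None of these differences passed the test, with standard errors from 0.0824 to 0.272, and the difference between paralogs and parents was not tested. Rps19bp1 differed by -0.12 and -0.21 (-0.02 and -0.11 without dorsal light 4). Rps4l read 6.12 on dorsal light 4, and without that array it differed by -0.21 and -0.02, so its place above 0 rested on that array. Without it Rpl22l1 differed by -0.11 and -0.07, Rpl39l by -0.09 and 0.10, Rpl7l1 by 0.06 and 0.02 and Rps27l by 0.11 and -0.06, none past the threshold. Rpl39, Rpl7, Rps27 and Rps4x stayed below 0 in both comparisons. Of the other 2 probe sets of Rpl7l1, 1 was below 0 in each comparison on all arrays. Without dorsal light 4 they read -0.21 and -0.01 between ventral and dorsal SCN, and -0.28 and -0.10 between central and dorsal SCN. The other probe set of Rps4x then read 0.14 and -0.004.

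No ribosomal protein gene was told apart between ventral and central SCN. The median difference over the 47 genes was 0.02 (-0.01 after centring), against 0.05 over all genes, 28 of 47 genes were higher in the ventral SCN (23 after centring), and 0 of 47 passed the test (5.20% of all genes called; 0 of 47 at an unadjusted p under 0.05, against 12.9%). The median standard error of a single difference was 0.127. The smallest p-value was that of Rpl39l (-0.20, adjusted p = 0.420 in limma), followed by Rpl22 (0.18, adjusted p = 0.456).

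Probe sets that were not used for the counts gave a weaker picture on all arrays. Of the 52 further tested probe sets of these genes, 27 were below 0 between ventral and dorsal and 36 between central and dorsal SCN (medians -0.02 and -0.08), against 43.3% and 49.3% of all 31018 probe sets tested. Of the 24 genes with more than 1 tested probe set, 17 had at least 1 probe set with the opposite sign between ventral and dorsal SCN and 10 between central and dorsal SCN. Without dorsal light 4 the counts below 0 were 41 and 42 of 52 (medians -0.17 and -0.21), and the genes with an opposite sign were 8 and 9 of 24. Of 104 tested probe sets that name a ribosomal protein gene together with other genes, 80 and 85 were below 0 on all arrays, and 94 and 95 without dorsal light 4. Of these 104, 0 were called lower in the ventral SCN (1.03% of all probe sets) and 1 in the central SCN (2.69%).

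Genes of related pathways were read from lists of their own, beside which the medians over all genes were 0.01 between ventral and dorsal and -0.05 between central and dorsal SCN. Of 76 tested subunits of oxidative phosphorylation, 69 were below 0 between ventral and dorsal SCN (median -0.19, 1 called lower, against 1.98% of all genes) and 72 between central and dorsal SCN (median -0.26, 10 called lower, against 5.14% of all genes). Among them Cox6a2, a cytochrome oxidase subunit, differed by -1.16 ± 0.186 between central and dorsal SCN (adjusted p = 0.000271 in limma), and Atp5b, of ATP synthase, by -0.38 (adjusted p = 0.0125). Of 76 tested mitochondrial ribosomal proteins, 50 and 59 were below 0 (medians -0.10 and -0.16) and 0 were called in either comparison.

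Factors that build or work with the ribosome had medians nearer 0; the difference from the ribosomal protein genes was not tested. Of 44 ribosome biogenesis genes, 23 and 27 were below 0 (medians -0.01 and -0.06, 0 called). Of 32 initiation factors, 13 and 19 were below 0 (medians 0.03 and -0.04), and Eif3f, a subunit of the initiation factor eIF3, was called lower in both (-0.49 and -0.51). Of 11 elongation factors, 6 and 8 were below 0 (medians -0.03 and -0.07, 0 called), with Eef1a2, the neuronal form of the factor that brings transfer RNA to the ribosome, at -0.40 in both (adjusted p = 0.0691 and 0.0539 in limma).

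Of 21 genes of TOR signalling, which controls translation of these mRNAs, 2 rose with light in the ventral SCN (0.585% of all genes were called higher there): Ddit4l, an inhibitor of TOR, by 2.43 ± 0.374 (adjusted p = 0.00133 in limma) and Rheb, the small GTPase that activates it, by 0.57 ± 0.112 (adjusted p = 0.0111; 0.0540 after array centring). Ddit4l was 1.66 (adjusted p = 0.0526) in the central and 0.71 (adjusted p = 0.506) in the dorsal SCN. No gene of the biogenesis, initiation, elongation or mitochondrial ribosomal lists was called for light in any subregion. Polr1e, a subunit of the RNA polymerase that makes ribosomal RNA, had light effects of 0.64, 0.55 and 0.59 in the ventral, central and dorsal SCN, with adjusted p-values of 0.180, 0.336 and 0.328.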

How the data were processed

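The authors deposited log2 expression values for 45101 probe sets on 24 arrays. GCRMA 2.32.0, R 3.0.2 and MAS5 are named in the submitters' processing notes, with no role given, and no source used here gives how the batches were scaled. Values were used as deposited. Probe sets were named by GEO's platform annotation; 34945 name 1 gene, 932 several and 9160 none, and 64 control probe sets were left out. A gene was read from its brightest probe set, by the mean of all 24 arrays. limma 3.58.1 (R 4.3.3, lmFit and eBayes) fitted 6 group means and the batch to the 13494 genes above 4 on at least 4 arrays; the averaged light effect used 8 means over the 3 subregions, 1 per treatment and replicate number, joined across subregions by that number alone. All p-values were adjusted over these genes by Benjamini-Hochberg. The script was tested on simulated data. Precision is limited by how many arrays there are. The genes and lists were chosen with earlier results of these data known. Named were the genes that passed a test, the 4 with the smallest p where fewer than 4 passed, stalk proteins, Rpsa, Rps6, paralogs with their parents, genes that failed the filter and up to 4 per related list; Rps7, Rps28 and genes singled out by array or probe set were added after their values were seen. Alternatives were scaling, batch term, filter, probe set choice, array weights and leaving out arrays.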

Additional observations from a re-analysis of the deposited data

Results flagged for a closer look

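Across 72 groups of 4 arrays, 7 had an array far from the other 3 by Dixon's criterion at 95%. The 72 were 12 items in 6 groups, with values adjusted for the batch. The items were single genes and the median over the ribosomal protein genes. Chance alone marks about 1 group in 20 where genes are chosen without regard to their values. Some of the genes among the 12 items were singled out by their values on these arrays, so the 7 cannot be compared with that rate. Rps14, Rps19 and Rpl7a had the lowest deviations on dorsal light 4 from the other arrays of its batch (-3.58, -2.81 and -1.71). Their marks on that array are therefore not independent of the choice of genes. Of the 7, 3 were dorsal light 4, low for Rps14 (7.86), Rps19 (8.38) and Rpl7a (11.09). Another 3 were dorsal sham 1, low for Rpl22 (9.42), Rps14 (9.53) and Rpl7a (11.13). The last was central light 2, high for Rpl6 (10.7).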

How the results depend on the processing

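No light, interaction or ventral against central call arose under any alternative, so 0 of 47 genes held there throughout. Calls between ventral and dorsal SCN (1 of 47) became 2 with quantile normalization, 2 with the mean of all probe sets, 4 with array weights, 3 without dorsal light 4 and central light 2, 3 without dorsal light 4 on centred values (added after seeing the data), and 0 with no batch term, batch A alone, batch B alone, sham arrays only or light arrays only. Calls between central and dorsal SCN (4 of 47) became 7 with the mean of all probe sets, 9 with array weights, 7 without those 2 arrays, 2 with probe sets of suffix x or s left out (added after seeing the data), and 0 with no batch term, either batch alone, sham arrays only or light arrays only. All but the fit with no batch term used fewer arrays. The share of all genes called also moves between settings and is not set beside the counts in this paragraph. These counts therefore do not tell whether the ribosomal protein genes or the whole array gained or lost calls. Leaving out 1 array at a time gave 0 (without dorsal sham 2) to 3 (without dorsal light 3 or 4) calls in the ventral and 1 (without dorsal sham 3) to 7 (without dorsal light 3 or 4) in the central comparison, with 2 without dorsal sham 2, central light 3, central sham 3 or central sham 4. With the replicate number as a block, calls were 2 in the ventral comparison, with Rps28 added, and 7 in the central comparison, with Rps28, Rps6 and Rpl37a added. Deviations of same-numbered arrays correlated at 0.209 to 0.623 in batch A and 0.0960 to 0.460 in batch B, all above 0. Single arrays of different number were not compared. The correlations above 0 are a hint of variation shared by number. In batch B 1 of the 15 pairs was not over 0.1, and the labels name nothing the numbers share. The block was therefore not taken as a pairing. The median light effect in the central SCN was -0.11 in batch A alone and 0.14 in batch B alone. The light effect of Rps4l in the central SCN turned to 0.28 in batch B alone, and Rps24 between ventral and central SCN to -0.013 without suffix x or s; the cause was not tested. The medians stayed between -0.19 and -0.11 (ventral) and -0.21 and -0.13 (central against dorsal SCN) in every setting run. Probe sets near the filter are limited by signal over background.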
